A study of Homo sapiens with 4 samples.

Results

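The retinoblastoma (RB), E2F and DREAM regulators are the proteins that switch cell cycle genes off in resting cells and on in dividing ones. The 10 genes described here were chosen by name, as known members of this system: the pocket protein genes RB1, RBL1 and RBL2, the factor genes E2F1, E2F4, E2F7 and E2F8, and LIN9, MYBL2 and FOXM1. All 10 were found by gene ID among the 61852 genes of the deposited tables, and all 10 passed the filter on low counts that 15965 genes passed. RNA was sequenced from H1299 cells in 4 libraries. H1299 is a human lung cancer line of the non-small-cell type, with the genotype p53-/- in the labels. In 2 libraries the cells expressed CASM34, a p53 mutant in a series on synonymous mutations found in cancer, and in 2 they expressed p53WT, the wild-type form. The labels name no drug, dose or time, and do not say how p53 was introduced or whether a group is 1 clone. H1299 cells that express no p53 were not analysed here.

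RB1, RBL1 (p107) and RBL2 (p130) bind E2F factors and silence their targets until cyclin-dependent kinases phosphorylate them. With E2F4, RBL1 or RBL2 and the MuvB core, of which LIN9 is a subunit, form the DREAM complex, which represses genes of DNA replication and mitosis. p53 acts on this system through CDKN1A (p21), which inhibits those kinases. Once cells enter the cycle, MuvB leaves the pocket proteins, joins MYBL2 (B-MYB) and then FOXM1, and activates mitotic genes. E2F1 activates genes of the G1/S transition, and the atypical factors E2F7 and E2F8 repress them later in S phase. The comparison asks whether RNA of these regulators differs when H1299 cells express CASM34 in place of p53WT.

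DREAM and E2F factors read short words in promoters. E2F sites were searched as TTTCCCGC, TTTCGCGC, TTTGCCGC and TTTGGCGC. The cell cycle homology region (CHR), the contact of MuvB, was searched as TTTGAA and TTCGAA. Both strands were read in windows of 250 bases before and 50 after each annotated start (RefSeq, GRCh38.p14), in which 8 of the 10 genes had an entry. E2F8 and FOXM1 had none. An E2F word was present in 2 of these 8 genes, E2F1 and RBL1, against 3.99% of the 27305 genes in the table. Both carry a pair of words just before the start, shown here on the strand of the gene with the words in capitals.
E2F1 (chr20:33686386-33686433, minus strand): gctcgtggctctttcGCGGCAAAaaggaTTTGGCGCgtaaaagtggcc
RBL1 (chr20:37095998-37096038, minus strand): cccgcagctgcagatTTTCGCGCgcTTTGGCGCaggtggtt
In E2F1 the first word is TTTGCCGC read on the opposite strand. A CHR word was found in 2 of the 8 genes, RBL2 and LIN9 (in 1 of its 3 windows), against 19.5% of the 27305 genes. The only window of RB1 starts inside the gene body of GENCODE 29, so the main start of RB1 was not searched. A match describes the letters and is not evidence of binding.

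The libraries held 26906095 and 18086983 counts (CASM34) and 21717726 and 25969760 counts (p53WT). Levels are given in CPM, counts scaled to library size with TMM factors. Of 9 epithelial markers 5 were high enough to test and none passed by edgeR. KRT18, a simple keratin gene, had 1035 and 1025 CPM in CASM34 cells, against 1011 and 1031 CPM in p53WT cells, while EPCAM, CDH1, NKX2-1 and SFTPC were too low to test. The 8 leukocyte markers summed to 109 and 96.2 CPM in CASM34 cells, against 103 and 101 CPM in p53WT cells, nearly all of it CD68. PTPRC, CD3E and MS4A1 had 0 counts in all 4 libraries. The 8 fibroblast and endothelial markers summed to between 2.99 and 3.95 CPM in every library, and LUM had 0 counts. Of the leukocyte markers 2 and of the fibroblast and endothelial markers 3 were high enough to test, and none passed by edgeR. Separate cultures are not stated for the 2 libraries of each group, so a p-value reflects the spread among these 4 libraries alone, and that spread may be technical.

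None of the 10 regulators passed the test between CASM34 and p53WT, while 1.95% of all tested genes did, 1.61% with CASM34 higher and 0.345% with CASM34 lower (edgeR quasi-likelihood test, Benjamini-Hochberg adjusted p under 0.05 over 15965 genes). Differences were small: fitted log2 fold changes lay between -0.15 for E2F8 and 0.11 for E2F1. At an unadjusted p under 0.05 there were 2 of the 10, FOXM1 lower and E2F1 higher, against 17.1% of all tested genes, 6.81% lower and 10.3% higher. DESeq2, limma-voom and limma on log2(TPM + 1) also called 0 of the 10. Over all 15965 genes they called 213, 320 and 0, so the last fit called no gene at all. Of the 10, they had 1, 2 and 2 at an unadjusted p under 0.05, against 1393, 2804 and 1820 of all tested genes. In CASM34 cells 8 of the 10 lay below 0, where 50.2% of all tested genes did, and the median was -0.06, against -0.00 over all genes. The groups did not overlap, with CASM34 lower, for 4 regulators (FOXM1, RB1, E2F8 and LIN9), against 23.4% of all genes, and with CASM34 higher for E2F1, against 24.5%, so that 47.9% of all genes did not overlap.

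**Figure D1:**
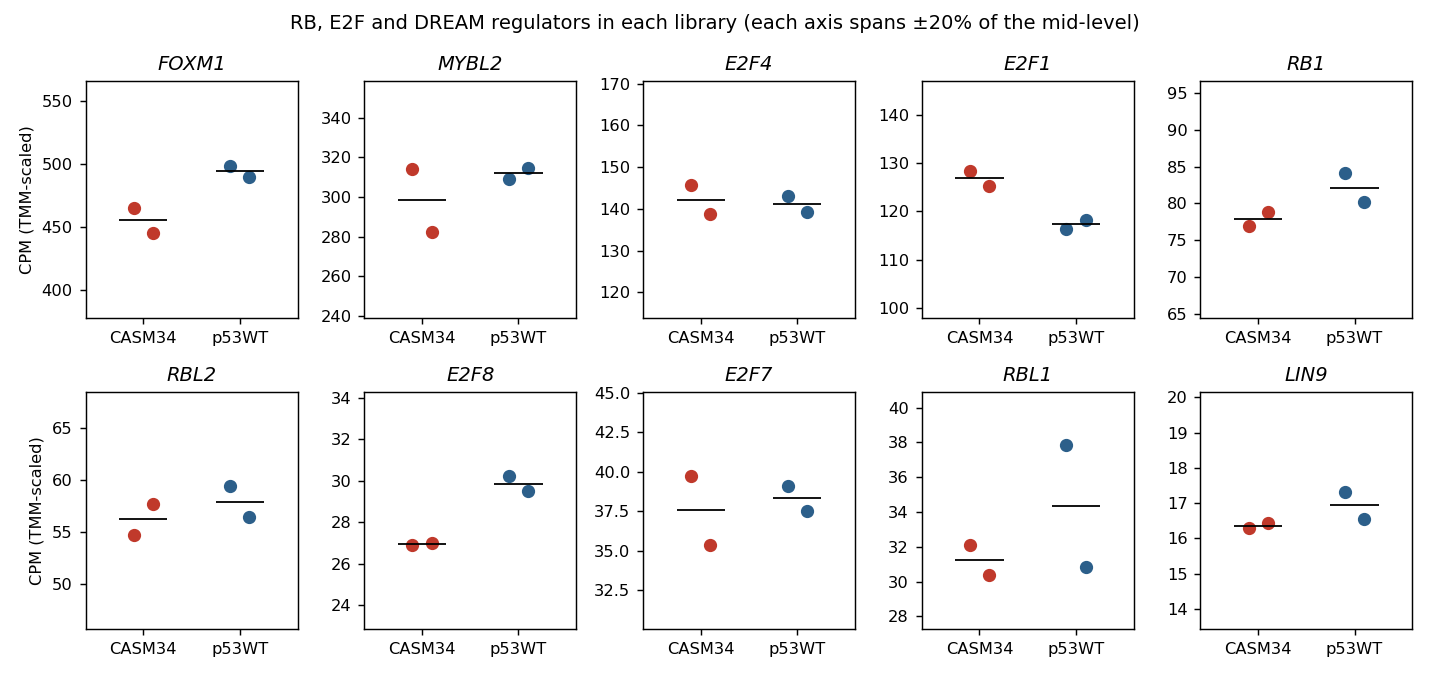
CPM after TMM scaling of each regulator (vertical axes, own range in each panel) in the 2 CASM34 and the 2 p53WT libraries. Points are libraries and bars are group means. E2F1 lies between 125 and 128 CPM in CASM34 cells, above both p53WT libraries, and FOXM1 between 445 and 466 CPM, below both.

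Among the pocket proteins, RB1 (ENSG00000139687.16, GRCh38 chromosome 13, 48303726 to 48599436, plus strand, GENCODE 29) had 76.9 and 78.8 CPM in CASM34 cells, against 84.1 and 80.2 CPM in p53WT cells. Both CASM34 libraries were below both p53WT libraries, but the nearest libraries of the groups lay closer together than the p53WT libraries did. The log2 fold change was -0.08 (SE 0.05, edgeR adjusted p = 0.470), with a 95% interval from -0.19 to 0.03. RBL2 (ENSG00000103479.17, chromosome 16, 53433977 to 53491649, plus strand), the pocket protein of resting cells, had 54.7 and 57.7 CPM in CASM34 cells, against 59.4 and 56.4 CPM in p53WT cells. Its groups overlapped, and the log2 fold change was -0.04 (95% interval -0.17 to 0.08). RBL1 (ENSG00000080839.12, chromosome 20, 36996349 to 37095995, minus strand), which is itself an E2F target, had 32.1 and 30.4 CPM in CASM34 cells, against 37.8 and 30.8 CPM in p53WT cells. The p53WT libraries of RBL1 were the farthest apart of any regulator relative to their level. Its log2 fold change of -0.13 (95% interval -0.32 to 0.06) turned to 0.02 without p53WT replicate 1. Counts of RBL2 were not whole (more than 0.001 from a whole number, here and below) in 4 libraries and those of RBL1 in 3, so both include reads shared with other gene models.

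RBL2 was 2.03 and 2.12 times as high as RBL1 per length (TPM) in CASM34 cells, against 1.84 and 2.10 times in p53WT cells. These ranges overlapped, and a two-sided exact permutation test on the log2 ratio gave p = 0.667. With 2 libraries a group the smallest p it can give is 0.333, and 3 such ratios were computed.

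Of the E2F factors, E2F1 (ENSG00000101412.13, chromosome 20, 33675683 to 33686404, minus strand) had the highest estimate. It had 128 and 125 CPM in CASM34 cells, against 116 and 118 CPM in p53WT cells, so that both CASM34 libraries were above both p53WT libraries. The log2 fold change was 0.11 (SE 0.05, edgeR adjusted p = 0.222), a fold of 1.08 with a 95% interval from 1.01 to 1.16. With an offset for GC content and length the log2 fold change of E2F1 turned to -0.09. E2F4 (ENSG00000205250.9, chromosome 16, 67192169 to 67198918, plus strand), the repressor E2F of DREAM, had 146 and 139 CPM in CASM34 cells, against 143 and 139 CPM in p53WT cells. The groups overlapped, and the 95% interval of its log2 fold change ran from -0.09 to 0.11. The estimate of 0.01 turned to -0.03 without CASM34 replicate 1 and to -0.01 without p53WT replicate 2.

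The atypical repressors differed more per length than by count. E2F8 (ENSG00000129173.13, chromosome 11, 19224063 to 19241620, minus strand) had 26.92 and 27.02 CPM in CASM34 cells, against 30.2 and 29.5 CPM in p53WT cells. The CASM34 libraries were both lower, by a fitted -0.15 on the log2 scale (SE 0.07, 95% interval -0.30 to 0.01), which did not pass (edgeR adjusted p = 0.315). E2F7 (ENSG00000165891.16, chromosome 12, 77021247 to 77065580, minus strand), which p53 is known to activate directly, had 39.7 and 35.4 CPM in CASM34 cells, against 39.1 and 37.5 CPM in p53WT cells. The groups of E2F7 overlapped by count, and its log2 fold change was -0.02 (95% interval -0.17 to 0.13), which turned to 0.05 without CASM34 replicate 2 and to 0.00 without p53WT replicate 1. In TPM, which divides by the effective length that RSEM assigns to each gene, E2F7 had 8.84 and 7.92 TPM in CASM34 cells, against 9.91 and 10.3 TPM in p53WT cells. E2F8 had 9.52 and 9.71 TPM in CASM34 cells, against 11.6 and 12.2 TPM in p53WT cells. Both genes thus did not overlap in TPM, with CASM34 lower, as did FOXM1, MYBL2 and RB1. This makes 5 of 10 regulators, against 20.7% of all tested genes. The gap of MYBL2 was narrow, with 156.17 and 141.07 TPM in CASM34 cells, against 156.54 and 156.29 TPM in p53WT cells. By CPM the groups of MYBL2 overlapped. E2F1 alone was higher without overlap, against 23.1% of all genes, and 43.8% of all genes did not overlap in either direction.

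The scales differ by the effective length. For E2F7 it was 5305 and 5290 bases in CASM34 cells, against 4733 and 4308 bases in p53WT cells, 17.2% longer. For E2F8 it was 3335 and 3294 bases in CASM34 cells, against 3126 and 2862 bases in p53WT cells, 10.7% longer. These were the regulators whose length groups did not overlap with CASM34 longer, an order seen in 13.0% of all tested genes, and a ratio at least as far from 1 as that of E2F7 was seen in 11.4%, and one as far as that of E2F8 in 18.6%. E2F4 was 1.02% shorter without overlap, as 16.4% of all genes were (29.4% in either direction), and the other 7 regulators overlapped. The length is a mean over annotated transcripts weighted by their estimated share, and the 7 transcripts of E2F7 measure 570 to 5740 bases in GENCODE 29. The tables used here hold no values per transcript, so which of them differed was not analysed here. With the effective length as an offset in edgeR the log2 fold changes were -0.26 for E2F7 and -0.30 for E2F8, and neither passed (edgeR adjusted p = 0.373 and 0.340). In that fit 0.0313% of all genes passed, and 11.8% had an unadjusted p under 0.05.

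The atypical repressors were also set against the activator within each library. The sum of E2F7 and E2F8 in TPM was 0.289 and 0.284 of E2F1 in CASM34 cells, against 0.367 and 0.384 of E2F1 in p53WT cells. The groups did not overlap, and the mean log2 ratio differed by -0.39 (two-sided exact permutation test, p = 0.333, the smallest it can give). From counts in place of TPM the difference was -0.19. With the GC and length offset described below, the separate log2 fold changes were 0.01 for E2F7, -0.13 for E2F8 and -0.09 for E2F1, and the ratio itself was not computed with that offset.

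**Figure D2:**
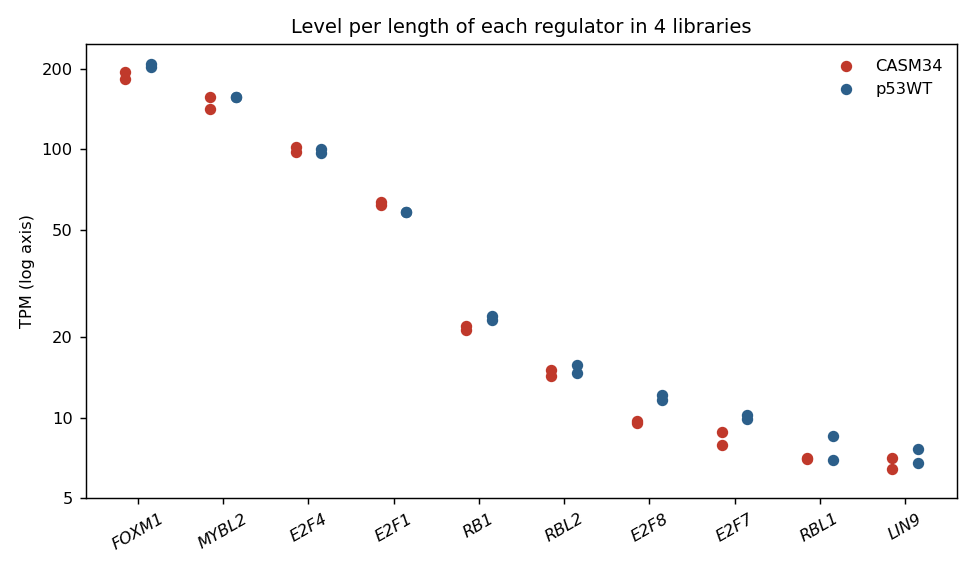
Level per length (TPM, log axis) of each regulator in order of its mean, with CASM34 libraries to the left of p53WT libraries in each pair. FOXM1, MYBL2, E2F4 and E2F1 lie above 50 TPM in all 4 libraries, and E2F7, RBL1 and LIN9 near or below 10 TPM.

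The MuvB subunit gene LIN9 (ENSG00000183814.16, chromosome 1, 226231149 to 226309869, minus strand) had the lowest counts of the regulators, 300 to 435 a library. It had 16.3 and 16.4 CPM in CASM34 cells, against 17.3 and 16.6 CPM in p53WT cells. The log2 fold change was -0.05, with a 95% interval from -0.25 to 0.15 that also covers changes as large as those of the other regulators.

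The mitotic activators carried the highest levels of the set. FOXM1 (ENSG00000111206.13, chromosome 12, 2857681 to 2877155, minus strand) had 466 and 445 CPM in CASM34 cells, against 498 and 490 CPM in p53WT cells. Both CASM34 libraries were lower, and the log2 fold change was -0.12 (SE 0.05, edgeR adjusted p = 0.208), a fold of 0.922 with a 95% interval from 0.860 to 0.987. Its counts were not whole in any library, so reads shared with other gene models are included. MYBL2 (ENSG00000101057.16, chromosome 20, 43667019 to 43716496, plus strand) had 314 and 283 CPM in CASM34 cells, against 309 and 315 CPM in p53WT cells. Only CASM34 replicate 2 stood below the rest. The log2 fold change of -0.06 (95% interval -0.18 to 0.05) turned to 0.01 without that library. MYBL2 was 24.2 and 19.98 times as high as LIN9 in TPM in CASM34 cells, against 20.5 and 23.0 times in p53WT cells, and the groups overlapped (two-sided exact permutation test, p = 1).

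Per length, over all 4 libraries, the order was FOXM1 (mean 197 TPM), MYBL2 (153 TPM), E2F4 (99.2 TPM), E2F1 (60.6 TPM), RB1 (22.5 TPM), RBL2 (14.9 TPM), E2F8 (10.7 TPM), E2F7 (9.24 TPM), RBL1 (7.40 TPM) and LIN9 (6.99 TPM). The ranges over libraries of the first 7 did not overlap with their neighbours among those 7. E2F8 overlapped with E2F7, E2F7 with RBL1, and RBL1 with LIN9, so the order within each of these pairs is not settled. The lowest library of E2F8 (9.52 TPM) was above the highest of RBL1 (8.53 TPM) and of LIN9 (7.64 TPM). The lowest library of E2F7 (7.92 TPM) was also above the highest of LIN9. In these cells E2F4 thus exceeded both of its DREAM pocket partners together, and the activators MYBL2 and FOXM1 exceeded LIN9 in every library.

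Fold changes of all genes moved with the GC content of their transcripts. The median log2 fold change was -0.08 for tested genes under 40% GC and 0.15 for those from 60% to 65% GC. The regulators fall on both ends of this trend. E2F1 (62.5% GC) and MYBL2 (60.2% GC) share the bin with the median of 0.15, and their differences from it were -0.04 and -0.21. RB1 and LIN9 (39.3% and 39.2% GC) lay 0.01 and 0.03 above the median of their bin. When the trend with GC content and transcript length was taken out of every library by an offset, E2F1 turned to -0.09 (edgeR adjusted p = 0.394) and E2F4 to -0.12 (edgeR adjusted p = 0.237). FOXM1 moved to -0.18 (95% interval -0.26 to -0.10) and MYBL2 to -0.22 (95% interval -0.31 to -0.13), and neither passed (edgeR adjusted p = 0.0639 and 0.0638). RBL2, E2F7 and LIN9 turned to 0.00, 0.01 and 0.02. At an unadjusted p under 0.05 there were then 4 of the 10, E2F1, E2F4, FOXM1 and MYBL2, all lower in CASM34 cells, where 8.51% of all tested genes were lower (12.6% in either direction). With the offset the median of all genes lay at -0.02, and 37 genes (0.232%) passed, 21 higher and 16 lower, against 257 higher and 55 lower without it.

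**Figure D3:**
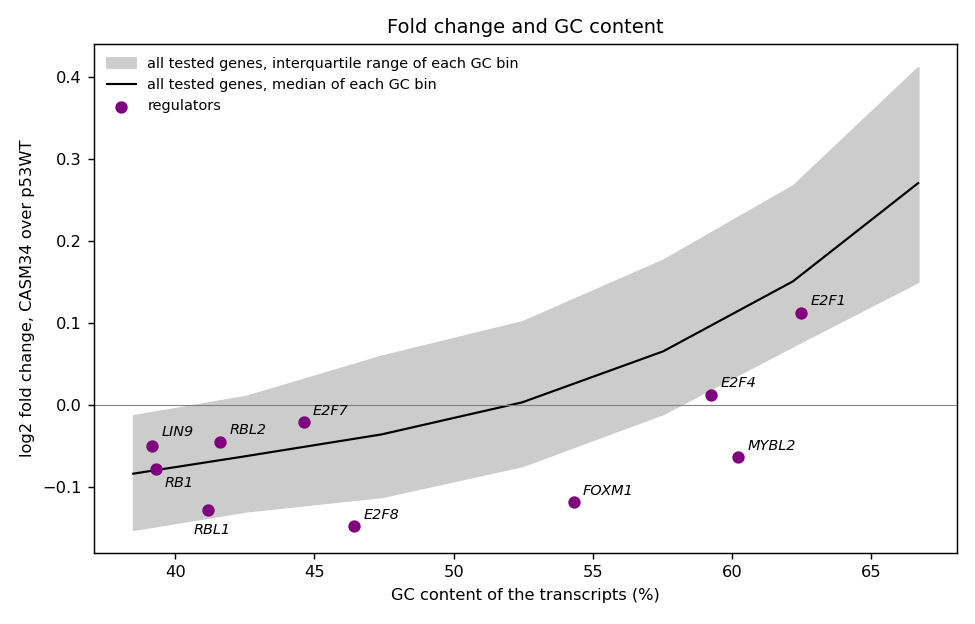
Log2 fold change, CASM34 over p53WT (vertical axis), against GC content of the transcripts in percent. The line and band give the median and interquartile range of all tested genes in each GC bin, drawn at the median GC of the bin, and points are the 10 regulators. E2F1 sits near the line at 0.11, MYBL2, FOXM1 and E2F8 sit below the band, and E2F4 is at its lower edge.

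**Figure D4:**
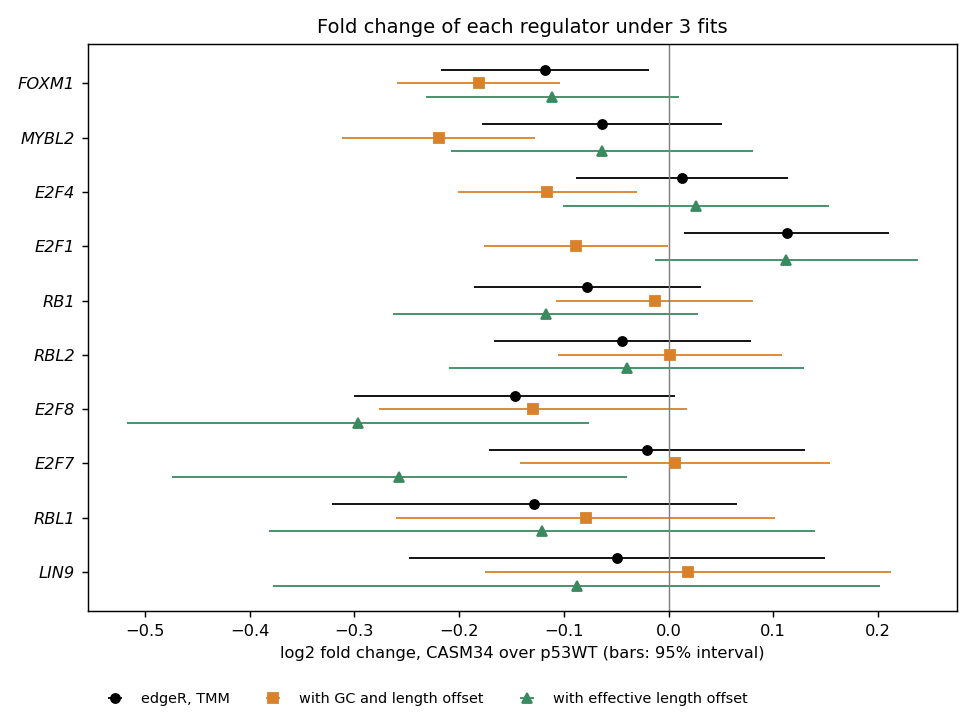
Log2 fold change, CASM34 over p53WT, of each regulator with its 95% interval, from edgeR with TMM scaling (circles), with the GC and length offset (squares) and with the effective length offset (triangles). With TMM scaling E2F1 is at 0.11 and MYBL2 at -0.06. The squares of these genes are at -0.09 and -0.22.

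Genes of the same pathway around the 10 regulators were read list by list. Of all tested genes 1.95% passed by edgeR, and 17.1% had an unadjusted p under 0.05. None of the 6 other E2F and DP genes passed by edgeR, with 1 at an unadjusted p under 0.05. The one farthest from 0 was E2F6, a repressor that does not bind pocket proteins, at -0.14 (edgeR adjusted p = 0.273). None of the 5 other MuvB and MYB genes passed, again with 1 at an unadjusted p under 0.05. This was RBBP4, the histone-binding subunit of MuvB, with 186 and 185 CPM in CASM34 cells, against 209 and 208 CPM in p53WT cells, which put it at -0.17 (edgeR adjusted p = 0.0697). The groups of RBBP4 were far apart beside their spread, its counts were not whole in 4 libraries, and its adjusted p ranged from 0.0101 to 0.321 over the alternatives.

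Of the kinase inhibitors 1 of 7 rose, against 1.61% of all tested genes. Of the 7, 3 were higher and 0 lower at an unadjusted p under 0.05, against 10.3% and 6.81% of all tested genes. Below 0 lay 4 of the 7, against 50.2% of all tested genes. The gene that rose was CDKN1A, which encodes p21 and links p53 to DREAM. CDKN1A had 517 and 531 CPM in CASM34 cells, against 390 and 413 CPM in p53WT cells, and both CASM34 libraries were higher. The log2 fold change of CDKN1A was 0.38 (SE 0.05, edgeR adjusted p = 0.00274). It passed with the offset for GC content and length, at 0.27 (edgeR adjusted p = 0.0394). It did not pass with the effective length offset, at 0.39 (edgeR adjusted p = 0.140), nor did any gene in limma on TPM. None of the 10 cyclins and kinases that act on pocket proteins or MuvB passed by edgeR. At an unadjusted p under 0.05 there were 3, 1 higher and 2 lower in CASM34 cells, against 17.1% of all tested genes. CCND2 was farthest from 0, at 0.20, with under 1 CPM in every library (edgeR adjusted p = 0.875).

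Targets of DREAM, MYBL2 and FOXM1 lay mostly below 0 in CASM34 cells. Of 22 G2/M targets 3 fell, CDK1, NUSAP1 and BUB1, against 0.345% of all tested genes. Of the 22, 21 lay below 0, against 50.2% of all tested genes, with a median of -0.16. CDK1, the main mitotic kinase gene, had 114 and 122 CPM in CASM34 cells, against 137 and 141 CPM in p53WT cells (log2 fold change -0.23, SE 0.05, edgeR adjusted p = 0.0286). NUSAP1, a spindle microtubule protein gene, had 109 and 108 CPM in CASM34 cells, against 126 and 130 CPM in p53WT cells (log2 fold change -0.23, edgeR adjusted p = 0.0249), with counts not whole in 4 libraries. BUB1, a spindle checkpoint kinase gene, had 184 and 177 CPM in CASM34 cells, against 215 and 207 CPM in p53WT cells (log2 fold change -0.22, edgeR adjusted p = 0.0306). The CASM34 libraries of all 3 genes were below both p53WT libraries, but the genes were picked by a test on these libraries. Such an order held for 18 of the 22, against 23.4% of all tested genes. The opposite order held for 0 of the 22, against 24.5%. Of the 22 genes 0 passed without p53WT replicate 1, 1 passed without p53WT replicate 2, and 5 passed without CASM34 replicate 2. With the GC and length offset CDK1 lay at -0.12 (edgeR adjusted p = 0.221), and NUSAP1 and BUB1 at -0.18 each. In that fit 0 of the 22 passed, against 0.232% of all tested genes. The median of the 22 was -0.12, against -0.02 over all genes. Below 0 lay 21 of the 22, against 9009 of the 15965 tested genes.

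Of 25 G1/S targets 1 fell, against 0.345% of all tested genes. Of the 25, 24 lay below 0, against 50.2% of all tested genes, with a median of -0.09. Of the 25 genes 0 passed without p53WT replicate 1 or without p53WT replicate 2, 2 passed without CASM34 replicate 1, and 2 passed without CASM34 replicate 2. With the GC and length offset 1 of the 25 fell, MCM2, a subunit of the replicative helicase named after its values were seen, at -0.21 (edgeR adjusted p = 0.0412). In that fit 16 of the 15965 tested genes fell. In bulk RNA, fewer cells in a phase of the cycle and less RNA per cell cannot be told apart. Neither list was chosen without knowledge of these data, and no test compared them with other genes.

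**Figure D5:**
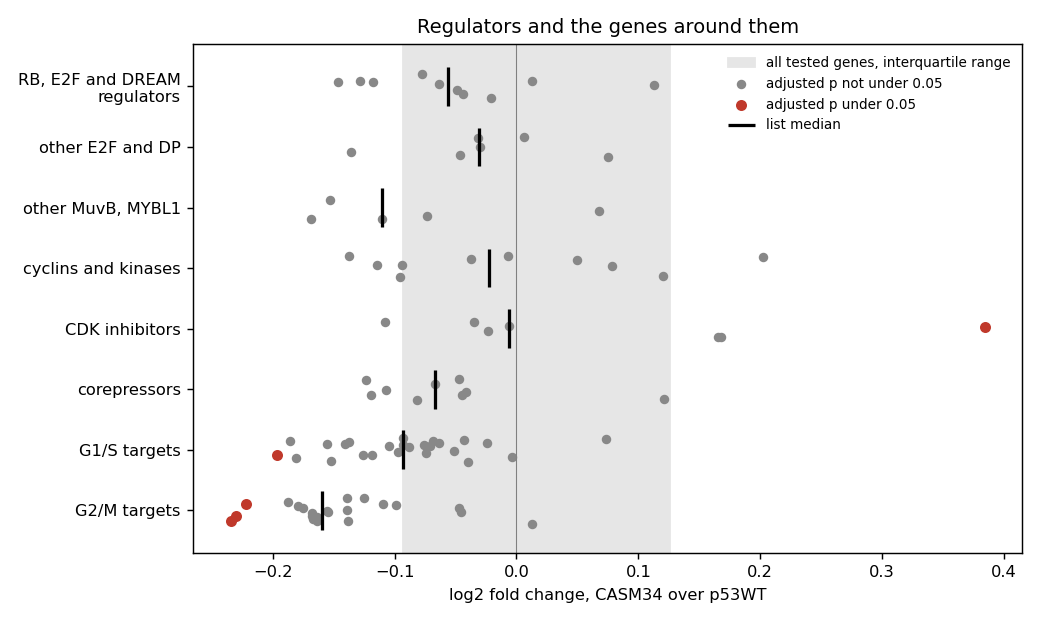
Log2 fold change, CASM34 over p53WT, of the 10 regulators and of the genes around them. Points are genes, red where the edgeR adjusted p is under 0.05, black bars are list medians and the grey band is the interquartile range of all tested genes. The medians of the G1/S and G2/M targets lie at -0.09 and -0.16, and that of the regulators at -0.06.

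The promoter words of the 2 target lists differed. Of the 22 G1/S genes with a window, 14 held an E2F word (63.6%) and 3 a CHR word (13.6%). Of the 18 G2/M genes with a window, 2 held an E2F word (11.1%) and 14 a CHR word (77.8%). Among all genes of the table the shares were 3.99% for E2F and 19.5% for CHR words. The CCAAT box, bound by NF-Y, was present in 81.8% of the G1/S genes, 88.9% of the G2/M genes and 39.7% of all genes. The CHR words nearest the start on the strand of the gene in the 3 G2/M genes that fell are shown in capitals. In CDK1 the word begins 13 bases before an annotated start. In BUB1 and NUSAP1 it begins after the start, at bases 2 and 14 of the transcribed side.
CDK1 (chr10:60778453-60778482, plus strand): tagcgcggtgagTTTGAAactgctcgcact
BUB1 (chr2:110678045-110678074, minus strand): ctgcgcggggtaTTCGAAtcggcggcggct
NUSAP1 (chr15:41332882-41332911, plus strand): tggcgccagggaTTTGAAccgcgctgacga
Among the regulators with a window, E2F1 and RBL1 carry an E2F word. None of the 10 regulators passed the test, so no link between the words and the test can be read from them.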

How the data were processed

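Per the labels' protocols, total RNA was isolated from H1299 cells on columns and poly(A) RNA was sequenced. Reads were trimmed with Trim Galore and processed with STAR and RSEM on GRCh38, per the submitters' processing notes. Not given in the sources used here: tool versions, annotation release and strandedness. Per the file headers, the deposited tables hold the expected counts estimated by RSEM, effective length, TPM and FPKM. Deposited TPM is scaled per length and library by the authors, and deposited FPKM served only to check the order of levels.

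Symbols were matched by gene ID for 61803 of 61852 genes. Coordinates and GC content come from GENCODE 29 on GRCh38. Expected counts were rounded and tested with edgeR 4.0.16 in R 4.3.3 (quasi-likelihood F test, TMM, minimum count 10, group as the only term). Genes called at an adjusted p under 0.05 are described as having risen or fallen. Each log2 fold change sets CASM34 over p53WT. Its standard error was derived from its size and the square root of F. The 95% intervals use the test's degrees of freedom, with no adjustment for the number of genes. Alternatives were other scalings and filters, DESeq2 1.42.0, limma 3.58.1 (voom, and log2(TPM + 1) or log2(TPM + 0.1)), offsets for effective length or for GC content and length (natural splines, 5 degrees of freedom each), a replicate block and leaving out each library. Counts differed between libraries of a group by more than counting error (chi-square per degree of freedom 3.94 in CASM34 and 3.90 in p53WT). The fit was tested on simulated data. Members and lists were chosen with earlier results of these data known. Besides the 10 members, genes were named that passed in a pathway list (at most 4 a list) or were farthest from 0 in it, and CDKN1A. Some results that this rule would name are not reported here.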

Additional observations from a re-analysis of the deposited data

How the results depend on the processing

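Over 17 alternatives for each of the 10 regulators, 153 of 170 estimates kept their direction and their side of the threshold. The replicate numbers in the titles gave a correlation of 0.034 between deviations of same-numbered libraries. The labels do not say what the numbers mean, and with 2 libraries a group this value cannot settle whether they mark pairs. With the replicate block 1159 genes passed instead of 312 and still 0 regulators, while 5 G1/S, 11 G2/M, 2 inhibitor and 1 other MuvB gene passed. With the replicate block and the GC and length offset 149 genes passed in all, and 2 regulators, FOXM1 at -0.18 and MYBL2 at -0.22 (edgeR adjusted p = 0.0331 and 0.0197), with 2 G1/S and 2 G2/M genes. In that fit RBL2 was at 0.0012, E2F1 at -0.087, E2F4 at -0.12 and LIN9 at 0.017.

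The number of genes that passed was 777 with no filter on low counts, 0 in limma on log2(TPM + 1) or log2(TPM + 0.1), 5 with the effective length offset, 37 with the GC and length offset, and 109 to 919 when 1 library was left out. Inhibitor, G1/S and G2/M genes that passed were 0 in each of the 2 limma fits and with the effective length offset. G2/M genes that passed were 0 with the GC and length offset, 9 with no filter, 6 in DESeq2 and 0 to 5 without 1 library. G1/S genes that passed were 0 with library-total scaling, 3 with no filter or in DESeq2, 2 in limma-voom and 0 to 2 without 1 library. With no filter 1 other MuvB gene passed. With 1 library left out, log2 fold changes turned sign for RBL1 (-0.27 to 0.016), E2F4 (-0.026 to 0.046, and -0.0055 without p53WT replicate 2), E2F7 (-0.11 to 0.053, and 0.0025 without p53WT replicate 1) and MYBL2 (-0.14 to 0.0083). With the GC and length offset signs turned for E2F1 (-0.089), E2F4 (-0.12), RBL2 (0.0010), E2F7 (0.0061) and LIN9 (0.018). The log2 ratio of E2F7 plus E2F8 to E2F1 differed by -0.19 from counts. Beyond the offsets, the cause of these changes was not tested. The order of levels was the same in FPKM and in TMM-scaled counts per kilobase.

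With 2 libraries a group no exact test of a single value can pass. LIN9 had 300 to 435 counts a library, and its interval is the widest of the 10 regulators.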

Other observations

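Of 9 genes for chromatin partners of the pocket proteins none passed by edgeR, and 3 had an unadjusted p under 0.05, 2 lower and 1 higher in CASM34 cells, against 17.1% of all tested genes. The median log2 fold change was -0.07, inside the interquartile range of all genes (-0.09 to 0.13). Below 0 lay 8 of the 9, against 50.2% of all genes. With the GC and length offset 8 of the 9 also lay below 0, against 9009 of the 15965 tested genes, and the median was -0.06. No test compared these genes with others. HDAC2, a histone deacetylase gene and the farthest from 0, had 213 and 208 CPM in CASM34 cells, against 227 and 232 CPM in p53WT cells, a log2 fold change of -0.12 (edgeR adjusted p = 0.177). With the GC and length offset HDAC2 lay at -0.04. SIN3B, which was named after its values were seen and joins DREAM in repressing cell cycle genes, was the only one of the 9 above 0, at 0.12 (edgeR adjusted p = 0.233), and lay at -0.02 with that offset.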
